A study of Rattus norvegicus with 15 samples.

Results

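The genes described here were 9 genes of the ERK pathway's own feedback and output. They were the Ets factors *Etv1*, *Etv4* and *Etv5*, the Sprouty genes *Spry1*, *Spry2* and *Spry4*, the phosphatases *Dusp4* and *Dusp6*, and *Spred1*. The set was selected on the values of *Etv4*, which was higher in light than in darkness at 6 ZT, so every value at 6 ZT is given as a description without a test. A probe set entered when the array annotation gave it exactly 1 symbol of the set. This gave 16 probe sets for 8 of the 9 genes, out of 14217 genes with a symbol of their own. *Etv1* had 5 probe sets, *Dusp6* had 3, *Etv4* and *Etv5* had 2 each, and each Sprouty gene and *Dusp4* had 1. No probe set was named for *Spred1*, and no value is given for it.

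ERK is the last kinase of a relay that runs from growth factor receptors at the cell surface through Ras, Raf and MEK. Active ERK enters the nucleus and switches on genes, among them *Etv1*, *Etv4* and *Etv5*, which encode Ets transcription factors of the PEA3 family, and several genes whose products restrain the relay. The transcripts of these genes are widely used as a readout of recent ERK activity. In the retina the relay responds to fibroblast growth factors, neurotrophins and ciliary neurotrophic factor, and Müller glia are a well known site of ERK activation.

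The animals were adult Long-Evans rats of 3 months with no genetic change, and all had spent the night in darkness. Total RNA of whole retinas was hybridised to 15 Affymetrix arrays in 5 conditions of 3 replicas. ZT counts the hours from 7 am. Retinas came from rats in darkness until 7 am (0 ZT dark, the control), 10 am (3 ZT dark) or 1 pm (6 ZT dark), or from rats in light of 1000 lux from 7 am for 3 hours (3 ZT light) or 6 hours (6 ZT light). For the last group the titles give 6 hours and the other labels 3 hours, and the former is used here. The labels do not say how many animals stand behind a replica or whether replicas were separate animals, so the p-values below measure the spread between these arrays, which may be technical.

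Values are log2 intensities per probe set, and a difference of 1 is a doubling. Differences and standard errors (SE) are limma estimates in which the replica number entered as a block, and a call needed an adjusted p under 0.05 over 31042 probe sets. Brightness depends on the probes, so levels of different probe sets are not compared. In whole tissue, fewer cells of a type and less RNA per cell cannot be told apart. Median log2 values lay between 8.28 and 8.32 in replica 1, 8.58 and 8.68 in replica 2 and 8.74 and 8.80 in replica 3, so that values are best read within a replica number. The excess of the 3′ over the 5′ signal of *Actb* on the log2 scale, a sign of RNA quality, was 2.10 in 0 ZT dark replica 1, 2.40 in 3 ZT light replica 2 and 0.71 to 1.37 in the other 13 arrays. The 9 measured rod markers had summed levels within 265000 to 308000 on all arrays. All but *Pde6a* ranked at the 99.8th percentile of brightness or above, where values have little room to vary. Their steadiness therefore does not measure rod content. Markers of Müller glia, pigment epithelium and lens were also present. The lens list was the least steady, with sums from 20300 to 233000.

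**Figure D1:**
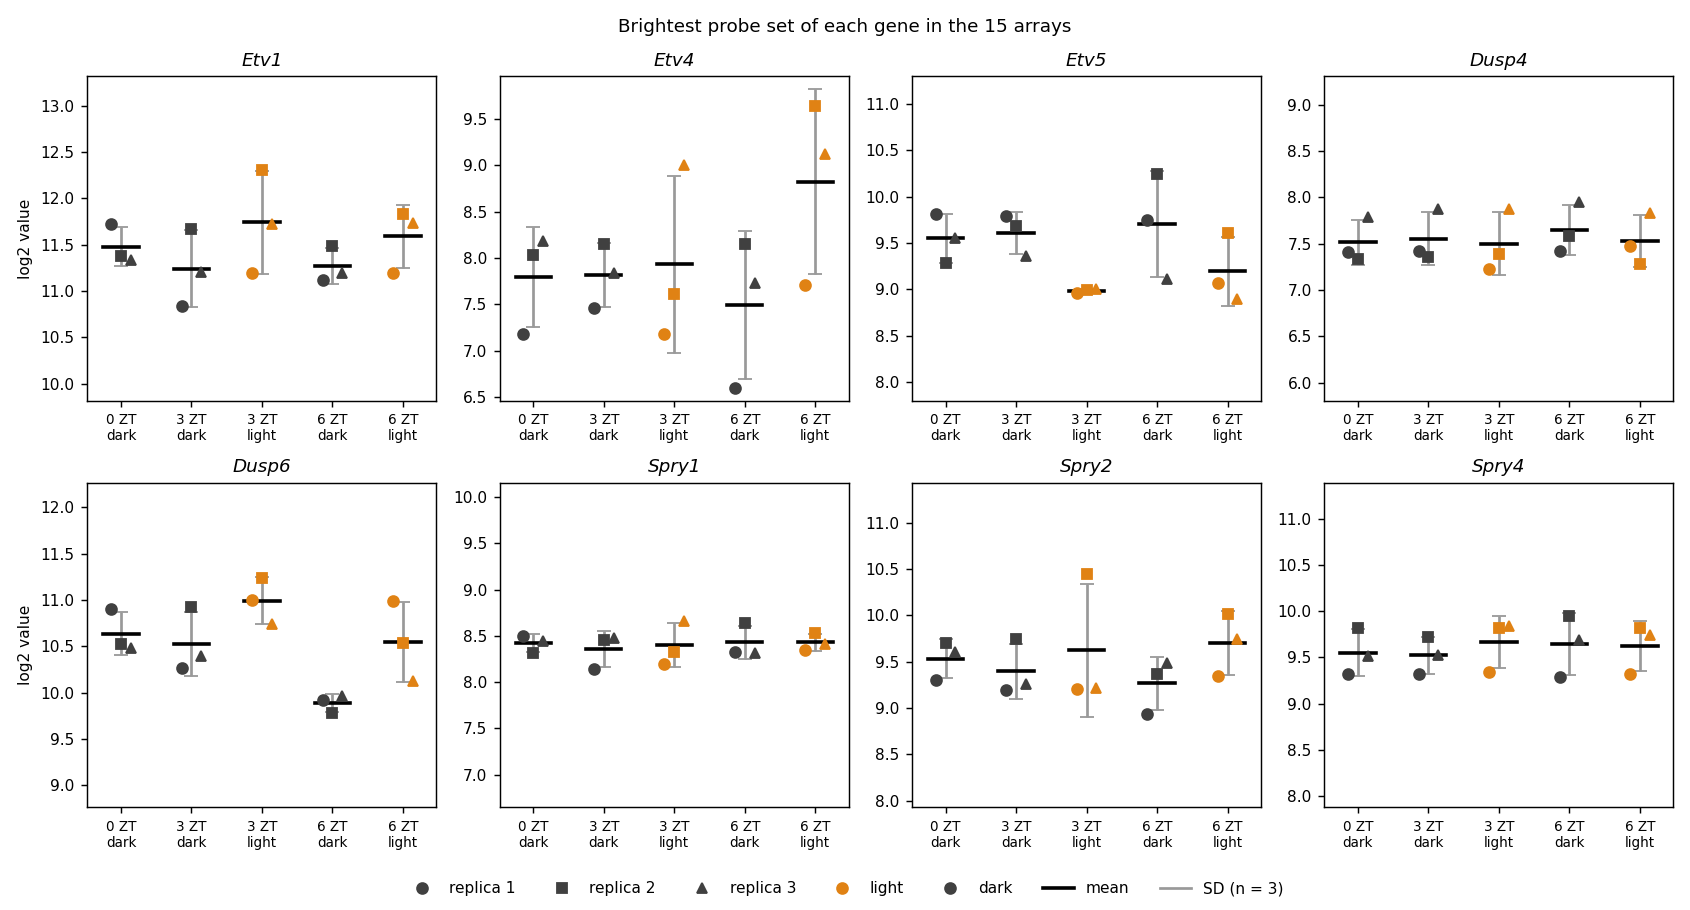
Log2 value (y axis, each panel spanning the same range) of the brightest probe set of each of 8 genes in the 5 conditions (x axis), with 1 symbol per array, the mean as a black bar and the SD as a grey bar. The 3 *Dusp6* arrays of 6 ZT dark lie below the other 12, those of *Etv4* in 6 ZT light spread from 7.71 to 9.64, and *Etv5* in 3 ZT light lies between 8.96 and 9.0 in all 3 arrays.

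*Etv4*, which encodes a PEA3 factor that fibroblast growth factor signalling induces in many tissues, was the gene that led to the selection. In 6 ZT light its brighter probe set read 7.71, 9.64 and 9.12 in replicas 1 to 3, against 6.60, 8.15 and 7.73 in 6 ZT dark. Each light array lay above the dark array of its number, although the ranges of the groups overlapped because the replica numbers differ in level. The within-replica ratios were 2.17, 2.81 and 2.62, with a mean of 2.53 ± 0.33 (SD, n = 3), and the log2 difference was 1.33 (SE 0.336). Ratios above 1.6 in all 3 replicas were found for 17 probe sets, which is 0.0548% of those tested, and *Etv4* was the 1 probe set of the genes described here among them. Over all probe sets 16 had a larger mean log2 difference than *Etv4*, of which 5 were among these 17. Against the control, the reference of the study's own ratios, *Etv4* in 6 ZT light had ratios of 1.45, 3.04 and 1.92 and a log2 difference of 1.03 (SE 0.336). The ratio of replica 1 lay under 1.6, and none of the 16 probe sets passed that limit in all 3 replicas there, against 0.0709% of all.

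The dimmer *Etv4* probe set was also higher in light than in darkness at 6 ZT, by less. It read 6.56, 7.16 and 7.21 in 6 ZT light and 6.23, 7.12 and 6.82 in 6 ZT dark, a log2 difference of 0.25 (SE 0.127) with 3 of 3 replicas higher in light, or 0.15 without 6 ZT dark replicate 1. Its replica 2 differed by 0.04 where the brighter probe set differed by 1.49. The size of the *Etv4* difference at 6 ZT therefore rested on 1 of 2 probe sets, while the direction was shared.

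At 3 ZT *Etv4* gave no such picture. The brighter probe set read 7.18, 7.61 and 9.01 in 3 ZT light and 7.46, 8.15 and 7.84 in 3 ZT dark. It was lower in light in replicas 1 and 2 and higher in replica 3, and the dimmer probe set had the same signs (differences of -0.07, -0.13 and 0.35). The log2 difference was 0.12 (SE 0.336, adjusted p = 0.97 by limma), and without 3 ZT light replicate 3 it was -0.30. Relative to the control, whose arrays read 7.18, 8.03 and 8.18, *Etv4* was 0.14 higher in 3 ZT light (SE 0.336, adjusted p = 0.926) and 0.02 higher in 3 ZT dark (adjusted p = 1.0). By mean, the brighter probe set ran from 6 ZT dark (7.49 ± 0.80, SD, n = 3) through 0 ZT dark (7.80 ± 0.54), 3 ZT dark (7.82 ± 0.34) and 3 ZT light (7.93 ± 0.95) to 6 ZT light (8.82 ± 1.00). Neighbours among the lower 4 of these means differed by less than the SDs.

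*Etv1*, which encodes a PEA3 factor used in the specification of several types of neuron, was higher in light than in darkness at 3 ZT in all 5 of its probe sets, though none passed the test. The brightest of them read 11.20, 12.31 and 11.72 in 3 ZT light, against 10.84, 11.67 and 11.21 in 3 ZT dark. Each light array was above its dark partner, by 0.36, 0.64 and 0.50, and the group ranges overlapped. The log2 difference was 0.50 (SE 0.213, unadjusted p = 0.0381, adjusted p = 0.895 by limma), so it did not pass the test. The other 4 probe sets differed by 0.51, 0.36, 0.47 and 0.30 in order of brightness, again with light higher in 3 of 3 replicas and each with an adjusted p of 0.895. These 5 probe sets measure 1 gene and are not 5 independent results. After each replica number was centred on its mean, the 10 pairs among them correlated with r from 0.58 to 0.96 over the 15 arrays.

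The replica 2 array of 3 ZT light, with the largest *Actb* difference, had the highest *Etv1* value of the 15 arrays in the brightest probe set. Without that array the differences of the 5 probe sets were 0.05 to 0.32, all still above 0, and for the brightest the value was 0.32. The part of RNA quality in the *Etv1* difference was not tested.

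Against the control, *Etv1* was less even. The brightest probe set read 11.72, 11.38 and 11.34 in 0 ZT dark, so that 3 ZT light was lower by 0.52 in replica 1 and higher by 0.93 and 0.38 in replicas 2 and 3 (log2 difference 0.26, SE 0.213, adjusted p = 0.749 by limma). The control's replica 1, the other array with a large *Actb* difference, was the highest of its group. At 6 ZT the brightest probe set read 11.20, 11.83 and 11.74 in light and 11.12, 11.49 and 11.20 in darkness, a difference of 0.32 (SE 0.213), or 0.21 without 6 ZT light replicate 3. The other 4 were 0.17, 0.31, 0.57 and 0.11 higher in light, and the dimmest of them was lower in light in replica 1. By mean, the brightest probe set ran from 3 ZT dark (11.24 ± 0.42, SD, n = 3) and 6 ZT dark (11.27 ± 0.20) through 0 ZT dark (11.48 ± 0.21) and 6 ZT light (11.59 ± 0.34) to 3 ZT light (11.74 ± 0.56), with no step between neighbours above 0.21.

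*Etv5*, the last of the PEA3 genes, ran the other way. Its brighter probe set read 8.96, 8.99 and 9.0 in 3 ZT light, against 9.79, 9.68 and 9.36 in 3 ZT dark and 9.81, 9.28 and 9.56 in the control. All 3 light arrays lay below all 6 of these dark arrays. The log2 difference was -0.62 from 3 ZT dark (SE 0.229, unadjusted p = 0.0203, adjusted p = 0.895 by limma) and -0.56 from the control (SE 0.229, unadjusted p = 0.0326, adjusted p = 0.638), and neither passed the test over all probe sets. Leaving out each array in turn moved the first value between -0.77 and -0.53.

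At 6 ZT the same probe set read 9.07, 9.61 and 8.90 in light and 9.75, 10.25 and 9.11 in darkness. Light was lower in 3 of 3 replicas, by 0.51 on average (SE 0.229), and the ranges overlapped. Without 6 ZT dark replicate 2 the difference was -0.27. The dimmer *Etv5* probe set read 7.43, 7.07 and 7.37 in 6 ZT light and lay between 7.49 and 7.67 in the other 12 arrays, so that 6 ZT light was below every other condition. At 3 ZT, by contrast, it differed by -0.05 (SE 0.0768, adjusted p = 0.945 by limma), and the pair of *Etv5* probe sets correlated at r = 0.17 over the 15 replica-centred arrays. The *Etv5* difference at 3 ZT therefore rests on 1 probe set. By mean, the brighter probe set was at 8.99 ± 0.02 after 3 hours of light and 9.19 ± 0.37 after 6 hours (SD, n = 3), and at 9.55 ± 0.27, 9.61 ± 0.22 and 9.71 ± 0.57 in 0, 3 and 6 ZT dark, where the 3 dark means differed by less than their SDs.

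**Figure D2:**
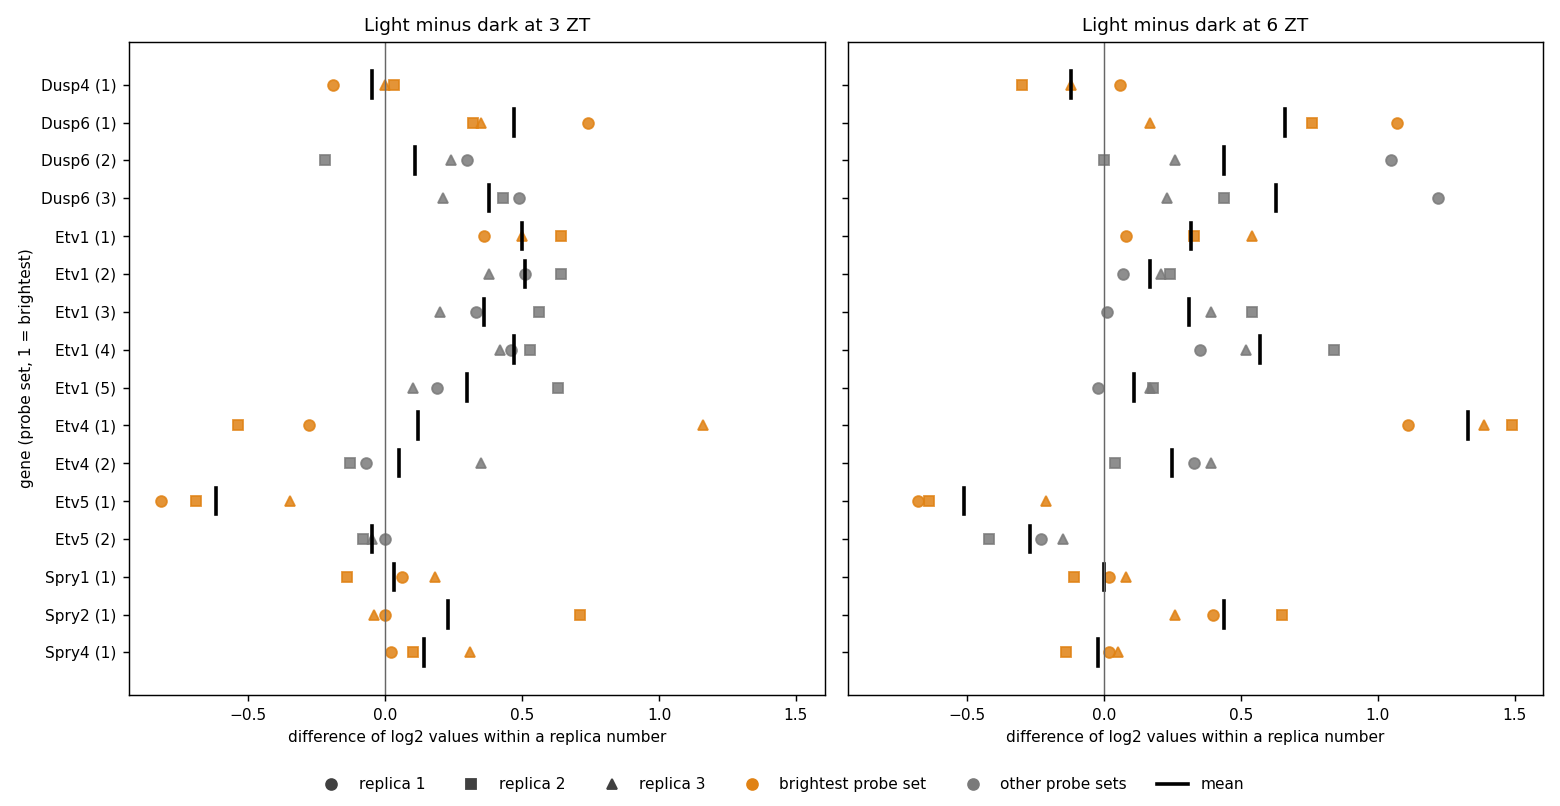
Difference of log2 values between light and darkness within each replica number (x axis) for the 16 probe sets (y axis, genes in alphabetical order and 1 for the brightest probe set), at 3 ZT on the left and 6 ZT on the right, with the mean as a black bar. The *Etv1* points lie to the right of 0 at 3 ZT for all 5 probe sets, and those of the brighter *Etv5* probe set to the left at both hours. At 6 ZT the brighter *Etv4* probe set lies at 1.11 to 1.49 and the dimmer at 0.04 to 0.39. Both lie on both sides of 0 at 3 ZT.

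*Dusp6* encodes a cytoplasmic phosphatase that removes the activating phosphates from ERK and is itself induced by the pathway. Its brightest probe set read 11.00, 11.24 and 10.74 in 3 ZT light, against 10.27, 10.92 and 10.39 in 3 ZT dark and 10.90, 10.52 and 10.48 in the control. Light was higher than darkness in 3 of 3 replicas, with a log2 difference of 0.47 (SE 0.206, unadjusted p = 0.0451, adjusted p = 0.895 by limma), and did not pass the test. Without 3 ZT dark replicate 1 the difference was 0.24. The other probe sets differed by 0.11 (2 of 3 replicas higher) and 0.38 (3 of 3), with adjusted p of 0.948 and 0.895. Without 3 ZT light replicate 2, the array with the largest *Actb* difference, the value of 0.38 fell to 0.04. That array held the highest value over all arrays for the brightest probe set (11.24) and for the dimmest (10.44). The value of 0.11 became -0.02 without 3 ZT dark replicate 1. The part of RNA quality in the *Dusp6* difference was not tested. From the control, the brightest differed by 0.36 (SE 0.206, adjusted p = 0.693 by limma), with light again higher in 3 of 3 replicas, by 0.72 in replica 2. The other probe sets differed from the control by 0.06 and 0.24, each with 2 of 3 replicas higher.

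At 6 ZT, darkness stood apart from every other condition in the brightest *Dusp6* probe set only. The brightest probe set read 9.92, 9.78 and 9.96 in 6 ZT dark, below all 12 other arrays, of which the lowest read 10.12. The third probe set by brightness read 8.39, 8.11 and 8.63 in 6 ZT dark, against 9.81, 9.49 and 9.53 in the control, without overlap between these groups. From the control, the 3 probe sets were lower by 0.75 (SE 0.206), 0.30 (SE 0.186) and 1.23 (SE 0.326) on the log2 scale in order of brightness. The within-replica ratios of the first were 0.508, 0.596 and 0.698, and those of the third 0.376, 0.385 and 0.533. Ratios below 0.7 in all 3 replicas were found for 0.287% of the probe sets tested, and for 2 of the 16 described here, both of *Dusp6*. The second probe set did not share this, since its replica 2 was higher in 6 ZT dark (10.49) than in the control (10.32).

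In 6 ZT light the brightest *Dusp6* probe set read 10.99, 10.53 and 10.12, which is 0.66 above 6 ZT dark (SE 0.206) and 0.08 below the control. The other 2 were 0.44 and 0.63 above 6 ZT dark. The former difference was 0.24 without 6 ZT dark replicate 1, and the latter 0.34 without 6 ZT light replicate 1. The third probe set, at 9.61, 8.55 and 8.86, stayed 0.60 below the control, lower in 3 of 3 replicas. Its range in 6 ZT light overlapped that in 6 ZT dark. For the brightest probe set the order of the means was 6 ZT dark (9.89 ± 0.10, SD, n = 3), 3 ZT dark (10.53 ± 0.35), 6 ZT light (10.55 ± 0.43), 0 ZT dark (10.63 ± 0.23) and 3 ZT light (11.00 ± 0.25). The 3 in the middle differed by less than their SDs.

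**Figure D3:**
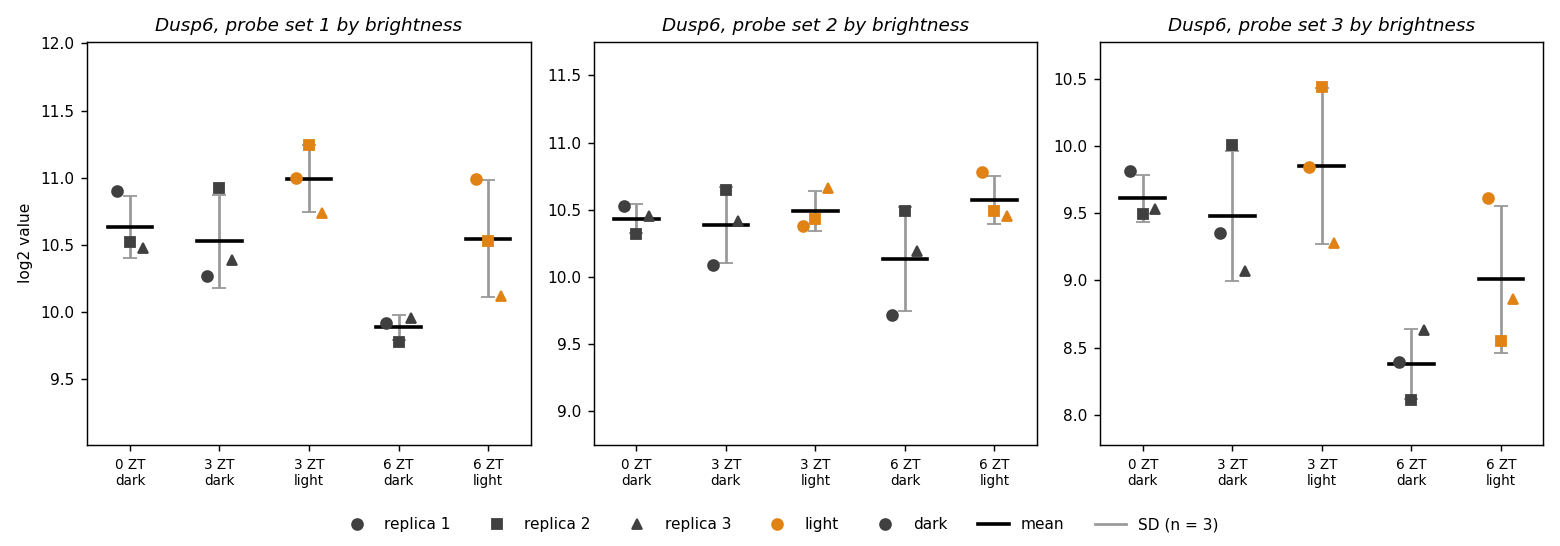
Log2 value (y axis, each panel spanning 3 log2 units) of the 3 *Dusp6* probe sets in the 5 conditions (x axis), with 1 symbol per array, the mean in black and the SD in grey. In the left and right panels the 6 ZT dark arrays lie below those of the control, with means of 9.89 against 10.63 and 8.38 against 9.61, and in the middle panel their ranges overlap.

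The other phosphatase gene, *Dusp4*, encodes a nuclear enzyme of the same family. It read 7.41, 7.34 and 7.79 in the control and lay between 7.23 and 7.95 over all arrays. In 3 ZT light it read 7.23, 7.39 and 7.88, against 7.42, 7.36 and 7.88 in 3 ZT dark, a log2 difference of -0.05 (SE 0.0794, adjusted p = 0.94 by limma). Its largest difference among the 6 comparisons was 0.13 (SE 0.0794), between 6 ZT dark and the control.

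Sprouty proteins hold the relay back between receptor and Raf. *Spry2* read 9.20, 10.45 and 9.22 in 3 ZT light and 9.19, 9.74 and 9.26 in 3 ZT dark, so that replica 2 alone set the difference of 0.23 (SE 0.20, adjusted p = 0.895 by limma). Without that light array, again the one with the largest *Actb* difference, the value was -0.07. At 6 ZT it read 9.34, 10.02 and 9.75 in light and 8.94, 9.37 and 9.49 in darkness. There light was higher in 3 of 3 replicas, by 0.44 (SE 0.20), or 0.28 without 6 ZT dark replicate 2, and the ranges overlapped.

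*Spry1* and *Spry4* varied little between the conditions. *Spry1* lay between 8.14 and 8.66 over all arrays, with a light minus dark difference of 0.03 at 3 ZT (SE 0.125, adjusted p = 0.977 by limma), and at 6 ZT its 3 replicas differed by 0.02, -0.11 and 0.08. *Spry4* read 9.34, 9.82 and 9.84 in 3 ZT light and 9.32, 9.72 and 9.53 in 3 ZT dark, a difference of 0.14 (SE 0.0798, adjusted p = 0.895). Its values were exactly equal in 3 arrays of replica 1 (9.316) and in 3 of replica 2 (9.817). Such ties within a replica number occurred in 8 of the 16 probe sets, and no share of all probe sets is given. In replica 2 they include the second *Dusp6* probe set (10.494 in 6 ZT dark and 6 ZT light). They also include the brighter *Etv4* probe set (8.148 in 3 ZT dark and 6 ZT dark).

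Counted together at 3 ZT, 8 of the 16 probe sets were higher in light than in darkness in all 3 replicas, against 7.71% of all probe sets tested, and 1 was lower, against 9.43%. With the mean of the 3 dark arrays in place of the same-numbered one, 4 of the 16 had all 3 light arrays higher. No share of all probe sets is given under that rule, so this count has no background. The 8 belonged to 3 genes, with 5 of *Etv1*, 2 of *Dusp6* and that of *Spry4*, and the 1 that was lower was the brighter of *Etv5*. At an unadjusted p under 0.05, 3 were higher (1.96% of all) and 1 lower (2.64%). None of the 16 had an adjusted p under 0.05, a limit that 0.00322% of all probe sets passed. The median log2 difference of the 16 was 0.18 and that of all probe sets 0.00. With the brightest probe set of each gene it was 0.13.

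From the control to 3 ZT light, 1 of the 16 was higher in all 3 replicas (*Dusp6*, 11.8% of all) and 1 lower (*Etv5*, 11.0%), and the same *Etv5* probe set was the 1 with an unadjusted p under 0.05 in that direction (4.43%). None of the 16 passed after adjustment (0.00322% of all). From the control to 3 ZT dark, 2 were higher in all 3 replicas (*Dusp4* and the dimmer of *Etv5*, 7.78%) and none lower (8.52%). No probe set on the array passed limma's adjusted threshold there (0.0%), with 389 at an unadjusted p under 0.05 and none of those among the 16. The medians of the 16 were 0.13 and -0.08, or 0.03 and -0.19 without 0 ZT dark replicate 2 and 0.20 and 0.01 without 0 ZT dark replicate 1.

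At 6 ZT, 9 of the 16 were higher in light than in darkness in all 3 replicas (17.2% of all) and both *Etv5* probe sets were lower (13.5%). The 9 came from *Etv1*, *Etv4*, *Dusp6* and *Spry2*. They include both *Etv4* probe sets, whose values led to the selection, and several of *Etv1*, which measure 1 gene. The count and the median of this comparison are therefore in part set by the selection. From the control to 6 ZT light, 3 were higher (12.3%), both of *Etv4* and that of *Spry2*, and 3 lower (9.38%), 1 each of *Dusp6*, *Etv1* and *Etv5*. From the control to 6 ZT dark, 1 was higher (*Dusp4*, 15.5%) and 6 lower (15.1%), of *Etv1*, *Dusp6* and *Spry2*. The medians of the 16 were 0.28, 0.05 and -0.19 in these 3 comparisons, which share arrays with each other and with the selection. Without 0 ZT dark replicate 2 the last 2 of these medians were -0.04 and -0.38, and without 0 ZT dark replicate 1 they were 0.17 and -0.02.

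Other cell types of the samples were followed by their markers beside these values. Between 6 ZT light and 6 ZT dark, the 9 rod markers were all higher by a little (median log2 difference 0.07), with ratios of the sums of 1.01, 1.10 and 1.02. In the same comparison, all 17 measured lens markers were lower (median log2 difference -1.64), with summed levels of 94900, 158000 and 20300 in light and 143000, 233000 and 232000 in darkness. The pigment epithelium list was higher for 9 of 10 genes (median 0.63), with ratios of the sums of 2.14, 1.09 and 1.49. The 8 ganglion cell markers and the 9 microglia markers were all lower (medians -0.40 and -0.10), while Müller glia were split, with 6 of 11 higher (median 0.01), as were the 8 markers of astrocytes and vessels (4 higher, median -0.01). From the control to 6 ZT dark, 17 of 17 lens markers were higher (median 1.07) and 9 of 10 pigment epithelium genes lower (median -0.44). None of the markers was at 0, since the normalization gives every probe set a value. Some were dim, such as *Mip*, a lens fibre channel, at 6.19 in its lowest array and *Kcnj10*, a Müller glia channel, at 5.25. The lowest single values of *Cryaa*, an abundant lens crystallin, and *Rpe65*, the visual cycle isomerase of the pigment epithelium, were 12.44 and 11.42. The part of these tissues in the *Etv4* and *Dusp6* values at 6 ZT was not tested.

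Between 3 ZT light and 3 ZT dark, 16 of 17 lens markers were higher (median 0.45), though the sums were lower in replica 2 (ratios 1.24, 0.798 and 1.78), and 10 of 11 Müller glia markers were lower (median -0.23), with ratios of 0.832, 0.727 and 1.01. The pigment epithelium list had 7 of 10 higher (median 0.14), and microglia and astrocyte and vessel markers had medians of -0.01 and 0.01. Ganglion cell markers were split, with 4 of 8 higher (median 0.06), and rods differed by a median of -0.03. The part of other cell types in the differences at 3 ZT was not tested.

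**Figure D4:**
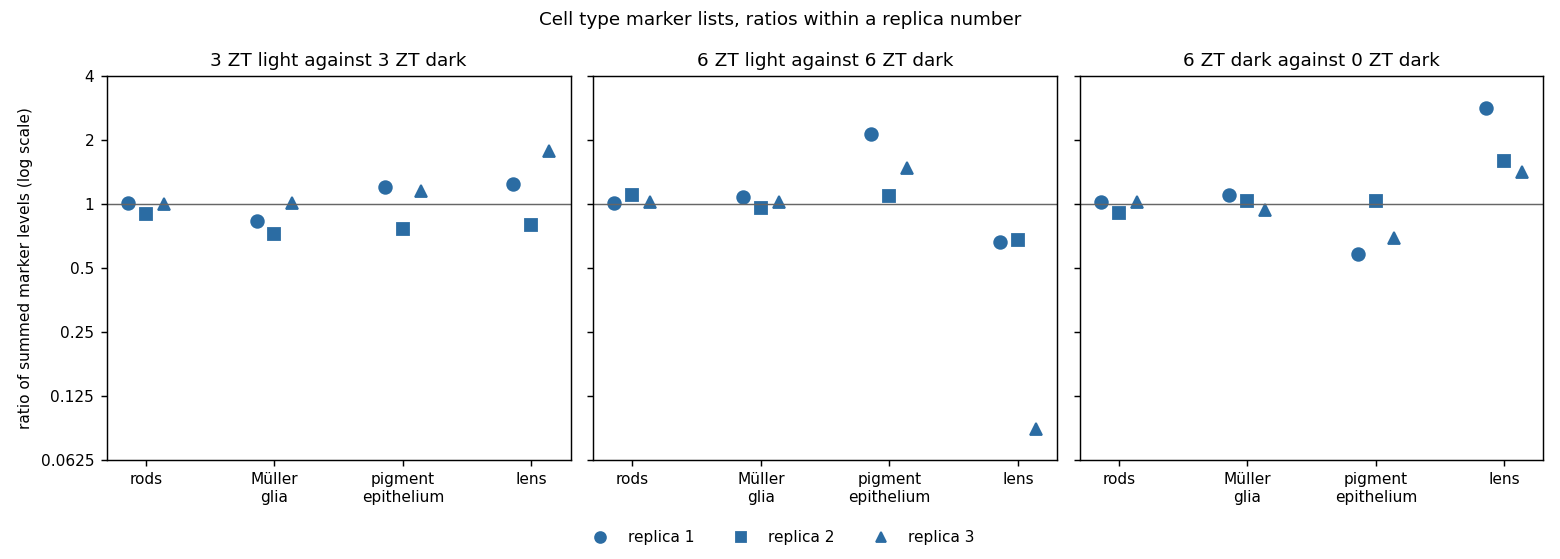
Ratio of summed marker levels within each replica number (y axis, log scale, 1 symbol per replica) for rods, Müller glia, pigment epithelium and lens in 3 comparisons (panels). The rods stay near 1, while the lens ratio between 6 ZT light and 6 ZT dark falls to 0.0875 in replica 3 and the pigment epithelium ratio reaches 2.14 in replica 1.

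The wider pathway was followed in 6 lists of 138 genes, of which 120 were measured, each by its brightest probe set. None passed the adjusted threshold of limma in light against darkness at 3 ZT, against 0.00322% of all probe sets. At an unadjusted p under 0.05, 2 were lower and 0 higher, against 2.64% and 1.96% of all. By sign alone, 71 were higher and 48 lower, a split for which no share of all probe sets is given. In all 3 replicas, 8 were higher and 7 lower, against 7.71% and 9.43% of all probe sets. The list medians lay close to the 0.00 of all probe sets, at 0.03 for ligands, 0.05 for receptors, -0.01 for adaptors and core kinases, 0.00 for other inhibitors, 0.02 for other Ets factors and 0.06 for other ERK targets. The control comparisons gave no adjusted call in these lists either. Of all probe sets, 0.00322% were called there in 3 ZT light and 0.0% in 3 ZT dark. At an unadjusted p under 0.05, 2 genes were higher and 7 lower in 3 ZT light, against 3.25% and 4.43% of all probe sets, and 1 was higher and 0 lower in 3 ZT dark, against 0.477% and 0.776%.

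Among ligands, *Cntf*, a cytokine that protects photoreceptors, had the log2 difference of -0.28 (SE 0.161), *Fgf18* of -0.24 (SE 0.119) and *Fgf13*, an intracellular relative of the growth factors, of 0.23 (SE 0.159). Of the receptors, *Fgfr1* was higher in light in 3 of 3 replicas by 0.17 (SE 0.119), as was *Pdgfra* by 0.23 (SE 0.163), while *Ret*, the receptor for glial cell line-derived factors, differed by 0.36 (SE 0.265) with replica 1 lower. The adaptor genes *Frs2* and *Grb2* and the Ras activator *Sos1* differed by 0.26, -0.12 and 0.22. None of these passed the test, with adjusted p from 0.895 to 0.898.

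Of the inhibitors, *Rasa1*, which encodes a Ras GTPase activator, read 10.65, 10.72 and 11.45 in 3 ZT light and 9.86, 10.61 and 10.94 in 3 ZT dark, higher in 3 of 3 replicas (log2 difference 0.47, SE 0.24). *Pebp1*, whose product holds Raf, differed by -0.31 (SE 0.148) and the phosphatase gene *Dusp8* by 0.40 (SE 0.233). The Ets genes *Elk1*, *Elf2* and *Etv3* differed by -0.15, -0.13 and 0.50. None passed, each with an adjusted p of 0.895 by limma.

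Of the other ERK targets, the genes with the smallest p were *Nr4a1*, *Ier3* and *Vgf*. *Nr4a1*, which encodes an orphan nuclear receptor induced within minutes by many stimuli, read 10.01, 9.52 and 9.64 in 3 ZT light and 10.28, 10.36 and 10.04 in 3 ZT dark. All light arrays were below all dark arrays, by 0.50 on average (SE 0.144, adjusted p = 0.895 by limma). *Ier3*, an early response gene, differed by -0.39 (SE 0.163) with 2 of 3 replicas lower. *Vgf*, which encodes a neuropeptide precursor, differed by 0.68 (SE 0.316) with 3 of 3 higher, of which replica 3 contributed 1.61. At 6 ZT, 24 of the 120 genes of the 6 lists were higher in light in all 3 replicas and 13 lower, against 17.2% and 13.5% of all probe sets. The list medians were -0.10 for ligands, 0.01 for receptors, 0.11 for adaptors and core kinases, -0.02 for other inhibitors, 0.13 for other Ets factors and 0.12 for other ERK targets.

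Across the 15 replica-centred arrays the members did not form 1 block. For their brightest probe sets, *Etv1* correlated with *Spry2* at r = 0.61 and with *Dusp6* at 0.57, and *Dusp6* with *Spry2* at 0.55. *Etv5* went against *Dusp6* at -0.62 and against *Spry2* at -0.56. *Etv4* had r between -0.27 and 0.36 to the other 7 genes. With all probe sets counted, the highest values between genes were 0.84 (the third of *Dusp6* with the dimmest of *Etv1*) and 0.81 (the fourth of *Etv1* with *Spry2*), and the lowest were -0.83 and -0.70, of the dimmer *Etv5* probe set with the brighter and the dimmer of *Etv4*. The arrays share their replica number and RNA, so these values are descriptions without a test. The probe sets most like the brighter one of *Etv4* were those of *Pds5a* (r = 0.87), *Nhlrc2* (0.87), *Erap1* (0.85), *Zfp972* (0.85) and *Mtmr10* (0.85). They differed between light and darkness at 6 ZT by 0.21 to 0.57, against 1.33 for *Etv4*. They were picked for likeness to *Etv4* over arrays that include those at 6 ZT, so the shared direction there is no separate result.

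The promoter sequences are shown for *Dusp6*, *Etv1* and *Etv5*, whose brightest probe sets had an unadjusted p under 0.05 between light and darkness at 3 ZT, higher in light for *Dusp6* and *Etv1* and lower for *Etv5*. Capicua is a repressor that binds an octamer in front of PEA3 family genes and leaves the DNA when ERK is active. The windows run from 250 bases before to 50 bases after a RefSeq start (build GRCr8, plus strand). They lie at chr7:35979354-35979653 for *Dusp6*, chr6:61317179-61317478 for *Etv1* and chr11:92113013-92113312 for *Etv5*. The *Etv1* gene begins at 61316836 on this build, so its window lies inside the gene and does not cover that first base. The *Dusp6* and *Etv5* genes begin at 35979502 and 92113171, inside their windows but before the RefSeq start that each window uses. The capitals mark matches to the Capicua octamer, of which there were 2 in *Dusp6* and none in the other windows shown.
Dusp6: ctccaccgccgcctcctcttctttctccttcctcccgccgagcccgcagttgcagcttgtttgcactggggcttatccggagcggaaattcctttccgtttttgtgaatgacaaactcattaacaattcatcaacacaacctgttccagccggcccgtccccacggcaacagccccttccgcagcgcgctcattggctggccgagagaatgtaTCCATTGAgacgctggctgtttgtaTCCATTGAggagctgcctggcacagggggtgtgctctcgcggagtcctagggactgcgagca
Etv1: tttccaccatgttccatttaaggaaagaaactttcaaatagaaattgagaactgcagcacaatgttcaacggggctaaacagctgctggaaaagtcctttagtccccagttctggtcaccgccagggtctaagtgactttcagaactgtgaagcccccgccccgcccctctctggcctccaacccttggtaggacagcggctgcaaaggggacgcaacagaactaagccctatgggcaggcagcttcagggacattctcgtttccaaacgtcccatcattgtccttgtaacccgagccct
Etv5: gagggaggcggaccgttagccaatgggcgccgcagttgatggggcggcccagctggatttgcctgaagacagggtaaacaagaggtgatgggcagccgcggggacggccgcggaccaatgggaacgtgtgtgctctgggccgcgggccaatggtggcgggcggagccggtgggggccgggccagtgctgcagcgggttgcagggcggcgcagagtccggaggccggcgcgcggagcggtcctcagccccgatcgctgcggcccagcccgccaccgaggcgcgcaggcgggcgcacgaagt

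The octamers searched were TGAATGAA, TGAATGGA, TCAATGAA and TCAATGGA on both strands. The *Dusp6* matches are TCAATGGA on the minus strand, and thus read TCCATTGA above, with their first bases at -37 and -12 from the RefSeq start used. They lie past the gene's first base on this build, and so inside the gene. At least 1 octamer was present in 4.26% of 33469 rat windows of the same length, and 2 or more in 0.242%. Of the 8 windows found for 7 of the 9 genes (*Spry2* has 2), the *Spry4* window held 1 octamer, TGAATGGA at -198. The windows other than those of *Dusp6* and *Spry4* held none. No window was found for *Etv4* or *Dusp4*, so these genes were not searched. The core bound by PEA3 factors, AGGAAG, was found once in the *Dusp6* window (at -223, minus strand) and in 34.5% of all windows. A match is a description of these letters, not a site in use. The motifs were chosen after the windows of these genes had been seen.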

How the data were processed

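Retinal RNA was measured on 15 Affymetrix arrays, and the labels give 6 µg of RNA per array where the methods give another amount. The authors deposited log2 values made from the scans by the Robust Multi-array Average, which corrects background, normalizes by quantiles and summarises the probes of a set. They were used as deposited. Their medians differed by replica number, so the arrays may not all have been normalized together. Of 31099 probe sets, 57 controls were left out, and 20826 carry 1 gene symbol, 436 several and 9831 none in the array annotation.

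Differences came from limma 3.58.1 in R 4.3.3, with condition and replica number as terms over all arrays, and Benjamini-Hochberg adjustment over 31042 probe sets. The step was tested on simulated data. Ratios within a replica number, and the limits of 1.6 and 0.7, come from the authors' rule, which takes them against the control, and were also applied here to light against darkness. The block on replica number was kept because in 18 of 18 checks an array was closest to the array of its own number (r from 0.289 to 0.797). This may come from processing, and it does not show that arrays of 1 number share animals. Other settings were no block, cyclic loess or quantile normalization, removal of probe sets below the 25th percentile, array weights (statmod 1.5.0), only the conditions compared, the brightest probe set per gene, both arrays with a large *Actb* difference left out, and each array left out in turn.

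The genes named are all members, the 5 probe sets most like *Etv4*, and the 3 genes of each pathway list with the smallest p at 3 ZT. Members and lists were chosen with earlier results of these data known. Sequences are from RefSeq. Figures were drawn with matplotlib 3.10.9.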

Additional observations from a re-analysis of the deposited data

How the results depend on the processing

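No member was called in any of the comparisons tested, in the analysis reported or under any alternative. Counts of member probe sets with 3 of 3 replicas in 1 direction depended on the pairing. Against the mean of the other group's arrays, those higher went from 8 to 4 for light against darkness at 3 ZT, and against the control from 2 to 1 for 3 ZT dark, 3 to 1 for 6 ZT light and 1 to 0 for 6 ZT dark. Against the control, quantile normalization gave 2, 0 and 2 in 3 ZT light, 3 ZT dark and 6 ZT dark, and cyclic loess 0 in 3 ZT dark and 5 in 6 ZT light. The other such counts stayed within 1.5 times. No share of all probe sets is given for these altered counts, so they show only the dependence on the setting. For light against darkness at 3 ZT the array held 1 called probe set, a gene outside the set, and 0 without the replicate block, after quantile normalization or with only the conditions compared. The replicate block changed no other call. From the control to 3 ZT light the 1 call became 2 with array weights and 0 with only the conditions compared. With array weights, the 0 calls at 6 ZT became 2311 for light against darkness, 676 for light against the control and 3 for darkness against the control, the second being 3 without both arrays of large *Actb* difference. The cause was not tested. Leaving out 1 array gave 0 to 1 calls for light against darkness at 3 ZT, 0 to 2 for 3 ZT light, 0 to 38 for 6 ZT light (38 without 3 ZT light replicate 2) and 0 to 1 for 6 ZT dark against the control, and 0 to 3 for light against darkness at 6 ZT.

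The median over the probe sets was 0.18 at 3 ZT and 0.28 at 6 ZT for light against darkness, and 0.13 and 0.16 with the brightest of each gene. Leaving out 1 array moved the first pair between 0.14 and 0.26 and between 0.21 and 0.29, and against the control between 0.03 and 0.20 for 3 ZT light, -0.19 and 0.01 for 3 ZT dark, -0.04 and 0.17 for 6 ZT light and -0.38 and -0.02 for 6 ZT dark. Over all 16 probe sets and 6 comparisons, 42 of 96 differences changed sign when 1 array was left out, none of them above 0.24 in size. Those of the brightest probe sets in the comparisons tested follow. For light against darkness at 3 ZT, *Spry1* was -0.01 with weights and *Spry2* -0.07 without both *Actb* arrays, and leaving out 1 array gave -0.09 to 0.02 for *Dusp4*, -0.30 to 0.53 for *Etv4*, -0.09 to 0.11 for *Spry1* and -0.07 to 0.45 for *Spry2*. For 3 ZT light against the control, *Spry1* was 0.06 with weights and 0.19 without both *Actb* arrays, *Spry2* -0.02 and -0.19, and single arrays gave -0.05 to 0.06 for *Dusp4*, -0.28 to 0.55 for *Etv4*, -0.15 to 0.09 for *Spry1* and -0.21 to 0.32 for *Spry2*. For 3 ZT dark against the control, weights gave 0.08 for *Dusp6* and 0.06 for *Spry1*, leaving out both *Actb* arrays 0.05 for *Etv1*, 0.07 for *Spry1* and 0.01 for *Spry4*, and quantile and cyclic loess normalization 0.02 and 0.01 for *Spry4*. Single arrays gave -0.30 to 0.12 for *Dusp6*, -0.47 to 0.06 for *Etv1*, -0.22 to 0.26 for *Etv4*, -0.20 to 0.21 for *Etv5*, -0.16 to 0.06 for *Spry1* and -0.09 to 0.01 for *Spry4*.

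The number of arrays limits the precision, and 3 replicas of unstated origin cannot separate animals from processing.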
